A study of Mus musculus with 2 samples.

Results

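Trimethylation of lysine 27 of histone H3 (H3K27me3) was called at the start of 5 of the 67 replication-dependent histone genes of the mouse, 7.46%, against 26.1% of all 21755 protein-coding genes of the autosomes and the X chromosome. The 67 were every protein-coding gene of the GENCODE annotation whose symbol begins with Hist1h, Hist2h, Hist3h or Hist4. They comprise 6 H1, 18 H2A, 18 H2B, 12 H3 and 13 H4 genes. The mark was profiled by histone ChIP-seq (sequencing of DNA that comes down with an antibody to the mark) in E14TG2a.4. This is an embryonic stem cell line, male, derived from mouse strain 129/Ola, with developmental stage given as embryonic and age as 3.5 day. The labels give 2 biological replicates of this one line and no second condition, so no difference between conditions could be tested, and the text below describes counts, positions and levels in each replicate. A gene is called marked when the window of 1 kb on each side of its annotated 5' end, 2001 bp in all, shares at least 1 bp with a peak of replicate 1 and with a peak of replicate 2. All positions are on mm10 (GRCm38). Part of the sequence in many histone gene windows also occurs elsewhere in the genome, which bears on what peaks can show and is described below.

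Replication-dependent histone genes supply the bulk of the core and linker histones that package newly copied DNA in S phase. They lie in clusters, lack introns as a rule, and give messenger RNAs that end in a short stem-loop, bound by SLBP, in place of a poly(A) tail. Their transcription is organised by NPAT in a nuclear compartment called the histone locus body. Polycomb repressive complex 2 lays down H3K27me3, which in embryonic stem cells is best known at silent genes for development. A few histone genes of the clusters are expressed mainly in the male germ line, among them Hist1h1t, Hist1h2aa and Hist1h2ba, which encode testis forms of H1, H2A and H2B.

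The promoter sequences of 3 marked genes and of 2 genes without a peak show where letters that histone promoters are known for stand. Each runs 5' to 3' on the gene's strand from 250 bases before to 50 bases after the RefSeq start on GRCm38.p6. At Hist1h2ba that start is also the first base of the annotated start codon, so positions there count from the start codon. Capitals mark TATAAA (the TATA box letters), CCAAT (the CCAAT box), the octamer ATTTGCAT (bound by POU2F1) and GGGCGG (the GC box), read on both strands, and no matches of different motifs overlapped. Hist1h2ba lies at chr13:23934107-23934406 on the minus strand, Hist3h2ba at chr11:58948661-58948960 on the plus strand and Hist1h1e at chr13:23622509-23622808 on the minus strand. Of the genes without a peak, Hist1h2bb lies at chr13:23746484-23746783 and Hist1h2ab at chr13:23750838-23751137, both on the plus strand.
Hist1h2ba: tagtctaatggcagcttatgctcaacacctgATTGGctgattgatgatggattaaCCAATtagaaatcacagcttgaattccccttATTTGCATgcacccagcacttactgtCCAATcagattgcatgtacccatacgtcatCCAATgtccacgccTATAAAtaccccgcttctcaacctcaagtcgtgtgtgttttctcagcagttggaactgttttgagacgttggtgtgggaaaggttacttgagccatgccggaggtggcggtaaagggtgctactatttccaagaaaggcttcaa
Hist3h2ba: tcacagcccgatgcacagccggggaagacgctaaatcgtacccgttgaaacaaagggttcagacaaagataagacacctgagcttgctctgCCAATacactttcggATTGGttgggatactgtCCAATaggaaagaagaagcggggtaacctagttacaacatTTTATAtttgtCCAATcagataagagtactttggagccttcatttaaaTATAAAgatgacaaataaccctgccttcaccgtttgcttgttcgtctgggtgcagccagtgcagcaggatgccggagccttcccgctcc
Hist1h1e: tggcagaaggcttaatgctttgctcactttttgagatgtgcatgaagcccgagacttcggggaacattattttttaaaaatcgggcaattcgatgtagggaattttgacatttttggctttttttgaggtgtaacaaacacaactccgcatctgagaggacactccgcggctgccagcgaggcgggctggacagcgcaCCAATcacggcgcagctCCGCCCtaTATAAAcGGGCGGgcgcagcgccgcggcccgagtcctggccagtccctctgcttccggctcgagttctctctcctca
Hist1h2bb: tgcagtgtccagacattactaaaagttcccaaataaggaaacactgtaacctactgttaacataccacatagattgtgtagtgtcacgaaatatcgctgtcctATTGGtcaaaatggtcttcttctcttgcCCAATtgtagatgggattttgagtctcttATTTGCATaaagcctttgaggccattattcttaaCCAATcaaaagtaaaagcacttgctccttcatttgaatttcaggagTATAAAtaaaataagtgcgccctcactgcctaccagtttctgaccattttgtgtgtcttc
Hist1h2ab: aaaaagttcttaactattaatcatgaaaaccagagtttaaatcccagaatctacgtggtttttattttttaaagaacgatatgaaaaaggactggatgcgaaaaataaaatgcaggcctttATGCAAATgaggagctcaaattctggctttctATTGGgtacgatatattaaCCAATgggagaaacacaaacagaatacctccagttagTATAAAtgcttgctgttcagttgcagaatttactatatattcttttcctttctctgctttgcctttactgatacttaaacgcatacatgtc

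The marked Hist1h2ba and the unmarked Hist1h2bb both carry TATAAA as well as CCAAT and the octamer in these windows. A RefSeq promoter was matched to 62 of the 67 genes, the 5 marked genes included. CCAAT occurred in 53 of the 62 (85.5%), against 38.2% of all 21263 promoters in the table. It was present in 3 of the 12 matched H4 genes and in every matched gene of the other classes. TATAAA occurred in 35 (56.5%) against 12.6%. The octamer occurred in 13 (20.97%), 7 of them H2A and 6 H2B genes, against 1.66% of all promoters. GGGCGG occurred in 23 (37.1%), 9 of them H4, 7 H2A, 4 H1, 2 H3 and 1 H2B, against 46.2% of all. Among the 5 marked genes, CCAAT was present in 5, TATAAA in 4, the octamer in 3 and GGGCGG in 1. Promoter windows of genes that start close together on opposite strands overlap, so a single site can be counted for both genes. The octamer of Hist1h2ba and that of Hist1h2aa are one such site. A match is a run of letters and not evidence that a factor binds there.

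The stem-loop of the 3' end was nearly uniform and was found at marked and unmarked genes alike. A search of the 100 bases after the stop codon for the 16-base histone stem-loop, with at least 5 of 6 stem positions paired, found it in 65 of the 67 histone genes (97.01%), at 22 to 59 bases after the stop with a median of 31. Of 21580 protein-coding genes with an annotated stop, 75 held it (0.35%), the histone genes included. The commonest forms are shown here, with the paired arms in capitals.
Hist3h2ba, Hist3h2a and others: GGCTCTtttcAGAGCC
Hist1h2ba, Hist1h1t and others: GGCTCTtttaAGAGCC
Hist1h4c and other H4 genes: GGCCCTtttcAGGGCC

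The first form stood in 41 histone genes, the second in 9 and the third in 8, the 8 all encoding H4. All 5 marked genes carried a stem-loop. Hist2h2be, an H2B gene with a peak in replicate 2 alone, and Hist1h2an, an H2A gene without a peak, were the 2 in which the search found none.

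The marked genes were Hist1h2ba and Hist1h2aa, the testis H2B and H2A genes at one end of the Hist1 cluster at higher coordinates, Hist3h2ba and Hist3h2a, an H2B and an H2A gene that make up the Hist3 cluster, and Hist1h1e, a linker histone H1 gene inside the same Hist1 cluster. None of the 12 H3 and 13 H4 genes was marked or had a peak in either replicate. Over all protein-coding genes 26.1% were marked, and many H3 and H4 windows hold sequence that is not unique, as described below. A further 4 genes had a peak in a single replicate, Hist1h2be in replicate 1 and Hist2h2ac, Hist2h2be and Hist1h1t in replicate 2. The other 58 (86.6%) had no peak in the window in either replicate, as did 68.0% of all protein-coding genes. Neighbouring windows overlap, so the 67 windows form 38 separate stretches, and the genes are not independent observations of the line.

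The genome held 1.53% of its sequenced bases in regions called in both replicates. The list called on replicate 1 had 63651 peaks over 53.6 Mb and that of replicate 2 had 98582 over 58.4 Mb. The reads behind them are unknown, so a missing call does not show that the mark is missing. As a check of the label, 0 of 5 stem cell genes (Pou5f1, Nanog and others) and 5 of 5 genes of later fates (T, Gata6 and others) were marked. Of 5 fibroblast genes 4 were marked, all but Acta2, which had no peak. The share over all protein-coding genes was 26.1%.

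**Figure D1:**
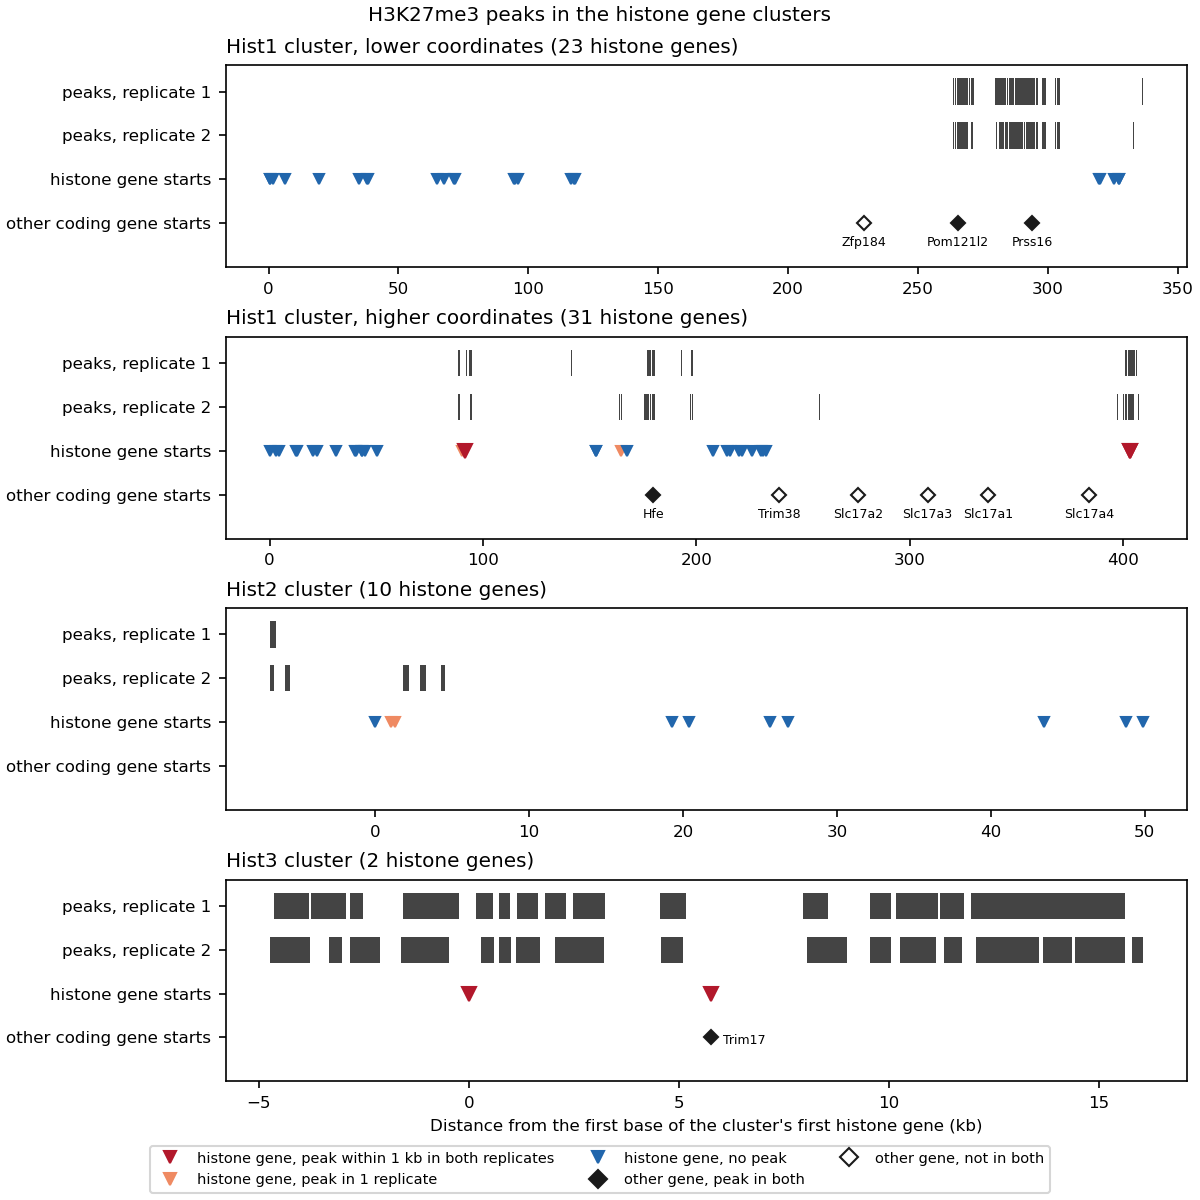
Peaks of replicate 1 and replicate 2 (bars) and the starts of histone genes (triangles) and other protein-coding genes (diamonds) along 4 histone clusters, against distance in kb from the cluster's first histone gene. None of the 23 histone genes of the lower Hist1 cluster has a peak in its window, and the regions called in both replicates there sit around Pom121l2 and Prss16, while both Hist3 genes lie among peaks.

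Hist1h2ba (chr13:23933773-23934156, minus strand) was covered across most of its window, over 1881 bp of 2001 bp (replicate 1) and 1700 bp (replicate 2). Hist1h2aa (chr13:23934462-23934851, plus strand) is transcribed away from it, with starts 306 bp apart, and was covered over 1881 bp in replicate 1 and 1789 bp in replicate 2. For both genes the annotated 5' end is also the first base of the start codon. These are the only histone genes whose 5' end lay inside a region called in both replicates. Their windows share the strongest peak, whose signal value, the authors' own, was 6.18 in replicate 1 and 6.07 in replicate 2, above 79.0% and 83.2% of the peaks of each list. Its −log10 q was 10.97 in replicate 1 and 9.93 in replicate 2.

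The marked stretch around this pair was short. Regions called in both replicates and joined across gaps of up to 3 kb ran from chr13:23931725-23936204, 4480 bp, of which 3689 bp were covered in both. It held the starts of these 2 protein-coding genes and no other. The pair lies 169 kb beyond Hist1h1a, the nearest other histone gene of the cluster, with Trim38 and 4 genes of the Slc17a transporter family between them. Of those, Slc17a2 had 201 bp covered in replicate 2 alone and the others had no peak in the window. Among the 13 pairs of histone genes that start within 1 kb of each other on opposite strands, 12 of them an H2A with an H2B gene, this was the one marked pair, and Hist2h2ac with Hist2h2be was the one with a peak in replicate 2 alone.

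Hist3h2ba (chr11:58948920-58949533, plus strand) was covered over 1432 bp in replicate 1 and 1116 bp in replicate 2, by 3 peaks in each. The strongest had a signal of 5.78 in replicate 1 and 7.23 in replicate 2, with −log10 q of 11.3 and 13.6. A region called in both replicates began 281 bp downstream of its start. Hist3h2a (chr11:58954685-58956830, plus strand), 5765 bp away, was covered over 411 bp in replicate 1 and 335 bp in replicate 2 by a single upstream peak, with signals of 6.58 and 6.94. The region called in both replicates ended 666 bp upstream of its start, so the start itself was free of peaks.

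Both Hist3 genes stood in one broad stretch. It ran over chr11:58944276-58964543, 20268 bp, with 10759 bp covered in both replicates, and also held the start of Trim17, a gene for a tripartite motif ubiquitin ligase. The annotation starts Trim17 and Hist3h2a at the same base on the same strand, so the window of one is the window of the other. Peak lists cannot assign that coverage to either gene. Over the 7.91 kb of the Hist3 cluster 32.4% of bases were covered in both replicates.

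Hist1h1e (chr13:23620629-23622558, minus strand) was marked at the edge of its window. It had 375 bp covered in replicate 1 and 44 bp in replicate 2, all upstream, with the region called in both beginning 957 bp from the start. The overlapping peak had a signal of 4.62 in replicate 1, above 48.2% of that list, and 6.59 in replicate 2, above 87.0%. The stretch, chr13:23623515-23625811, held 1081 bp covered in both replicates and no protein-coding start. It occupies the near end of a 58.9 kb gap without histone genes between Hist1h1e and Hist1h2ac.

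Beside all marked promoters, the 5 genes had a median coverage of similar size and a lower median signal, given here as a description. Their median coverage was 1432 bp in replicate 1 and 1116 bp in replicate 2, against 1251 bp and 1200 bp for all marked promoters. Their median signal was 6.18 in replicate 1 and 6.59 in replicate 2, against 7.67 and 7.56. In replicate 1, between 12.3% (Hist1h1e) and 37.0% (Hist3h2a) of all marked promoters had a lower signal, and in replicate 2 between 31.7% (Hist1h2ba and Hist1h2aa) and 44.2% (Hist3h2ba).

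**Figure D2:**
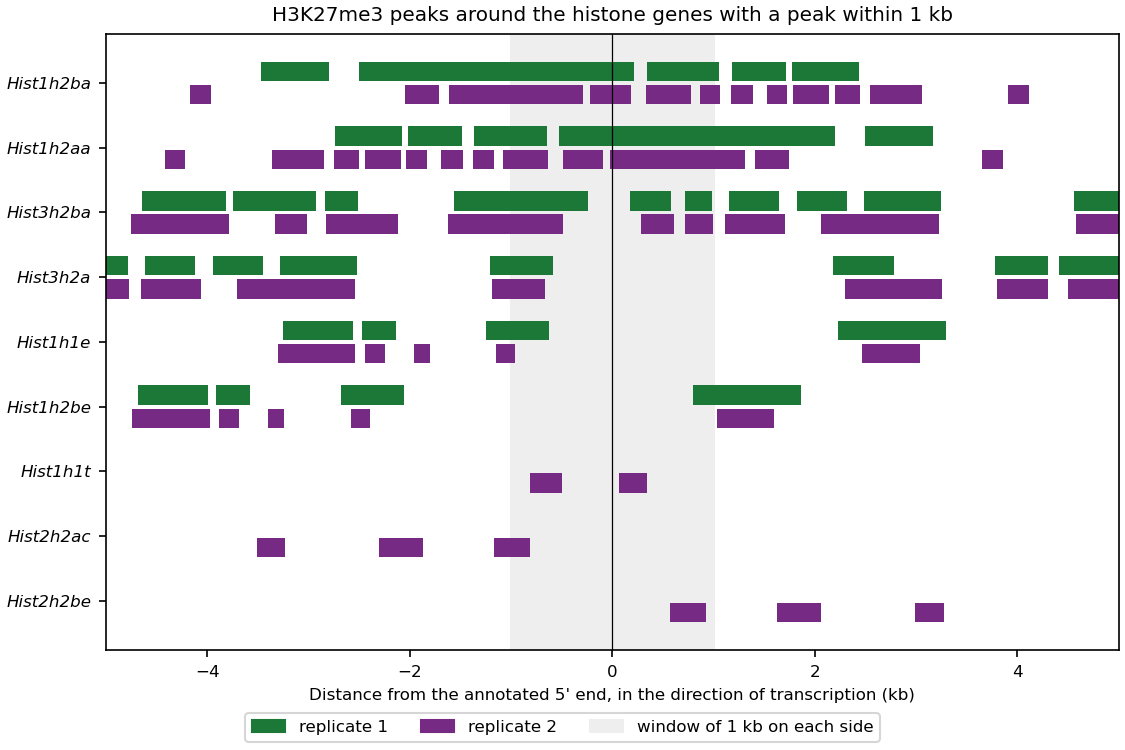
Peaks within 5 kb of the 5' ends of the 9 histone genes with a peak in the 1 kb window (grey) in at least 1 replicate, in the direction of transcription, with replicate 1 above replicate 2. Peaks span the start at Hist1h2ba and Hist1h2aa, flank it at Hist3h2ba, and reach the window of Hist1h1e only at its upstream edge.

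The 5 calls differed in how far they depend on the rule. With a window of 0.5 kb, and also under a rule of 50% coverage, 3 genes were marked, Hist1h2ba, Hist1h2aa and Hist3h2ba, against 21.4% and 14% of all protein-coding genes. Around annotated start codons in place of 5' ends, 4 were marked, without Hist1h1e, against 24% of all genes. Windows of 2.5 kb marked 6, with Hist1h2be added (30.7% of all genes), as did any transcript start (29.4%). Peaks with −log10 q of at least 2 left the same 5 (26% of all genes). The relaxed lists marked 9, the 5 and the 4 with a peak in a single replicate (33.3% of all genes), and so did the replicated lists of the first run (34.2%) and the second run (33.2%). Taking replicate 2 alone marked 8 (30.2% of all genes) and replicate 1 alone marked 6 (27.8%).

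Each of the 4 genes with a peak in a single replicate had a peak of the relaxed list in both. Hist1h1t, the testis H1 gene (chr13:23695814-23696725, plus strand), had 0 bp covered in replicate 1 and 589 bp in replicate 2, in a peak from -816 to -500 bp and another from 68 to 339 bp relative to the start. In the relaxed lists it had 470 bp in replicate 1 and 677 bp in replicate 2. Hist2h2ac and Hist2h2be, a divergent H2A and H2B pair with starts 239 bp apart, share one peak of 356 bp in replicate 2 with a signal of 2.60 and a −log10 q of 1.31. That peak covered 190 bp of the window of Hist2h2ac and 356 bp of that of Hist2h2be, and its signal exceeded that of 0.673% of the list. Its relaxed counterparts covered 189 bp in replicate 1 and 152 bp in replicate 2 at Hist2h2ac, and 264 bp and 331 bp at Hist2h2be.

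Hist1h2be, an H2B gene, has an annotated record far longer than the gene's coding part. It spans chr13:23583670-23621124 on the minus strand, and its 5' end lies 1434 bp from that of Hist1h1e and 35168 bp from its own start codon. The peak in its window covered 204 bp in replicate 1, and the nearest peak of replicate 2 began 1033 bp from the 5' end, just past the window's edge. The 1 kb on each side of the start codon was not called in both replicates. Across the 67 genes the median distance from the 5' end to the start codon was 33 bp, and only Hist1h1d, an H1 gene at 1828 bp, and Hist1h2be exceeded 1 kb.

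The remaining 58 genes had no call at a looser setting either. None had a relaxed peak in the window in either replicate, against 12.1% of all protein-coding genes without a peak. None had a base called in both replicates within 5 kb of the start, against 5.94% of those genes, and none had one in the gene body. The nearest to such a region were Hist2h2ab, an H2A gene at 6594 bp, Hist1h1c, an H1 gene at 9148 bp, Hist1h4c, an H4 gene at 9591 bp, and the divergent Hist1h2ah and Hist1h2bk at 15317 and 15619 bp. The farthest were the H4 genes Hist1h4j at 237572 bp and Hist1h4k at 228698 bp. In 10 of these 58 windows, under 50% of short sequence words occurred once in the genome, as described below. A missing call therefore does not show that the mark is missing.

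Over all 67 genes the median distance from the 5' end to a region called in both replicates was 37831 bp (quartiles 21288.5 and 145578 bp), against 29703 bp (quartiles 911 and 120990 bp) for all protein-coding genes. At short range the shares stood apart. The start lay inside such a region at 2.99% of histone genes and 9.59% of all genes, and more than 10 kb away at 83.6% of histone genes and 62.8% of all. Beyond 100 kb the shares were alike, 28.4% for each. Single lists gave shorter medians, 24602 bp to replicate 2 alone and 26833 bp to replicate 1 alone.

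**Figure D3:**
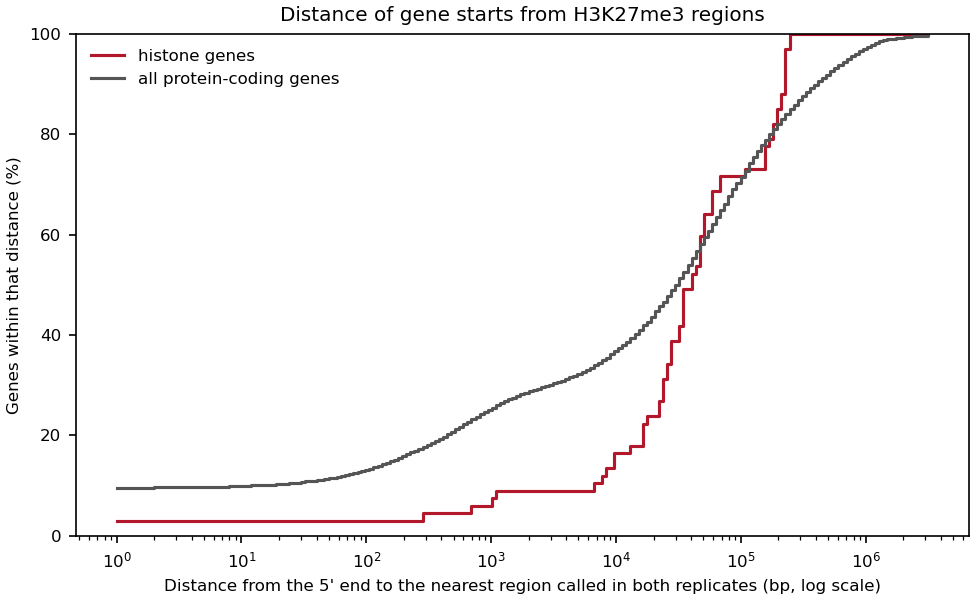
Share of genes (vertical axis, percent) whose 5' end lies within a given distance (horizontal axis, bp, log scale) of a region called in both replicates, for the 67 histone genes and for 21755 protein-coding genes. The histone curve stays below the other through the first 10 kb, beyond which 83.6% of histone genes and 62.8% of all genes lie.

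The clusters differed in how the mark lay around the genes. The lower Hist1 cluster (chr13:21715763-22043676, 23 histone genes) had 0 marked genes, although 6.48% of its bases were covered in both replicates. All 21265 of those bases lay in the 198 kb gap between Hist1h2br and Hist1h2ah, where no histone gene lies. That gap holds Prss16, a thymus serine protease gene covered over 1860 bp in replicate 1 and 1900 bp in replicate 2, and Pom121l2, a gene related to a nuclear pore protein with 1791 bp and 1674 bp. Zfp184, a zinc finger gene, had no peak in its window. Hist1h1b, the H1 gene of the same cluster, lay 198578 bp from the nearest region called in both replicates.

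The higher Hist1 cluster (chr13:23531050-23934851, 31 histone genes) had 3 marked genes and 1.78% of its bases covered in both replicates, with 3.33% covered when replicate 2 is taken by itself and 2.68% for replicate 1 by itself. Of the bases covered in both, 3093 lay in the 40.4 kb gap between Hist1h4c and Hist1h1c, which holds Hfe, the iron regulator of hereditary haemochromatosis. Its window was covered over 1609 bp in replicate 1 and 1561 bp in replicate 2, while the flanking histone genes had no peak. Between Hist1h1c and Hist1h1a the cluster had no histone gene with a peak, and Hist1h2bb, Hist1h2ab, Hist1h3a and Hist1h4a lay 17074, 21466, 32726 and 31570 bp from a region called in both.

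The Hist2 cluster (chr3:96219865-96270132, 10 histone genes) had 0 bases covered in both replicates, with 1070 bp covered in replicate 2 and 0 in replicate 1. Hist2h2aa1, an H2A gene there, lay 32226 bp from the nearest common region. The single Hist4 gene, Hist4h4 (chr6:136801553-136804415), had no peak in its window and lay 103536 bp from the nearest region called in both replicates. Over all clusters together 3.91% of bases were covered in both replicates. The share fell to 1.92% when histone genes were joined only across gaps of up to 100 kb. That takes out the gap with Prss16 (21265 bp covered in both) and the gap between Hist1h1a and Hist1h2ba (1575 bp). Of the 10 other protein-coding genes that start within the clusters, 4 were marked (Pom121l2, Prss16, Hfe and Trim17), beside 5 of the 67 histone genes and 26.1% of all genes. Trim17 and Hist3h2a share one window, so that call is counted on both sides.

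Histone genes without a peak were rich in CpG, the dinucleotide that is dense at many Polycomb targets. The ratio of observed to expected CpG within 500 bp of the 5' end had a median of 0.884 in the 58 histone genes without a peak and 0.879 in all 67, against 0.558 in all protein-coding genes. With all genes divided into 10 classes of equal size by this ratio, 29 histone genes fell in the highest class and 22 in the next. In the highest class 1 of the 29 was marked (Hist3h2a), against 25.6% of all genes of that class, and in the next 1 of the 22 (Hist1h1e), against 26.5%. The other marked genes had lower ratios. Hist1h2aa at 0.649 was 1 of 3 histone genes in the sixth class, where 42.3% of all genes were marked, and Hist1h2ba at 0.681 and Hist3h2ba at 0.707 were 2 of the 3 in the seventh, where 34.4% were.

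**Figure D4:**
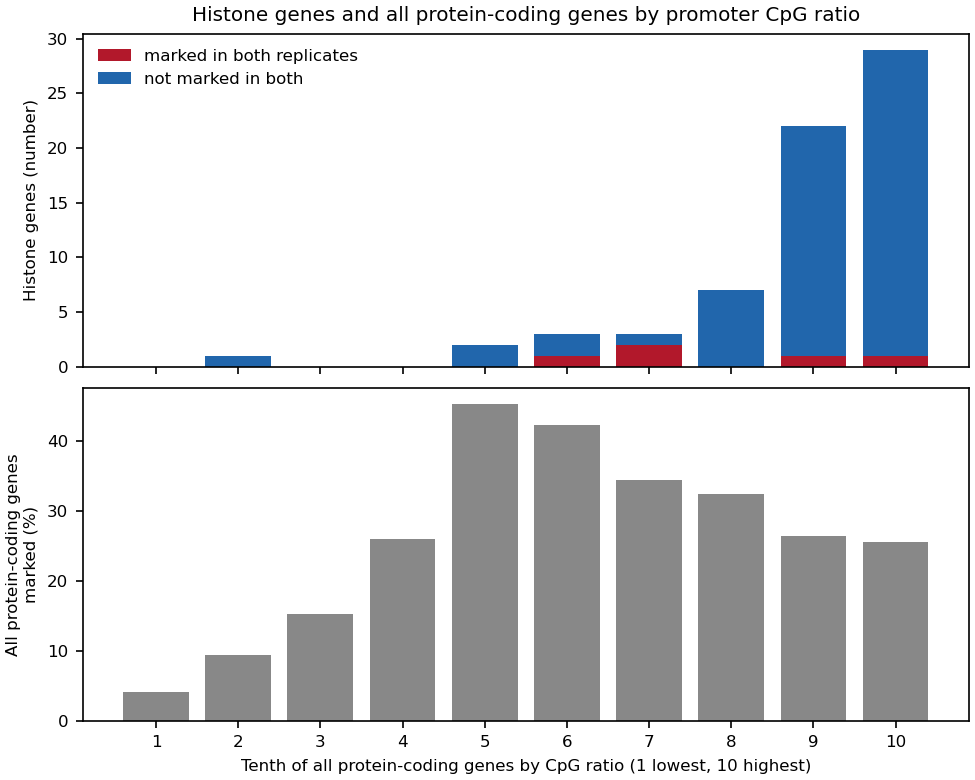
Number of histone genes (upper panel, marked in red) and percent of all protein-coding genes marked in both replicates (lower panel) in 10 classes of equal size by CpG ratio, lowest to highest. Of the histone genes, 29 and 22 fall in the highest classes, where 25.6% and 26.5% of all genes are marked.

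Histone genes are also alike in sequence, which bears on what a peak list can show, because reads that match several places may be dropped or placed at random. The sources used here do not say how such reads were treated. Of the 36-base words sampled along each window, a median of 76.1% occurred once in the reference genome for histone genes and 99.0% for all protein-coding genes. Under 50% of words were unique at 10 histone genes (14.9%) and at 5.63% of all genes. All 10 had no peak, and 4 of them, Hist1h2bq, Hist1h2ao, Hist1h2ap and Hist1h2br, had no unique word at all. Among windows with at least 50% unique words, 5 of 57 histone genes (8.77%) and 27.6% of all genes were marked. With at least 90%, 3 of 13 (23.1%) and 30.2% were marked, the 3 being Hist1h1e, Hist1h2ba and Hist1h2aa. The other 2 marked genes fell just under this limit, Hist3h2ba at 89.85% and Hist3h2a at 88.32%. All 12 H3 windows and 9 of the 13 H4 windows also fell under it, as did 17.0% of windows of all genes. No H3 gene was therefore among the 13 genes with at least 90%. The share of marked histone genes therefore depends on where the limit is set. The word length was chosen here, since the sources used here do not give the read length, and the reference is C57BL/6J while the line is 129/Ola.

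The 4 marked H2A and H2B genes had coding sequences below the median identity of their classes. Aligned end to end, the coding sequence of a histone gene had a median identity to the others of its class of 97.2% over the H2A genes and 97.4% over the H2B genes. Hist1h2aa had a median identity of 83.7%, Hist3h2a 88.0%, Hist1h2ba 87.8% and Hist3h2ba 89.8%. Low identity also occurred without the mark, as in Hist2h2ab at 83.5%, and Hist2h2be, with a peak in replicate 2 alone, stood at 87.1%. H1 genes varied more, around a class median of 74.0%, with the marked Hist1h1e above it at 76.2% and Hist1h1t at 62.3%, the lowest of all 67. Hist2h3c1, an H3 gene without a peak at 71.3%, has a longer annotated coding sequence of 546 bases. The part of mappability in the low count of marked histone genes was not tested beyond the shares given above.

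**Figure D5:**
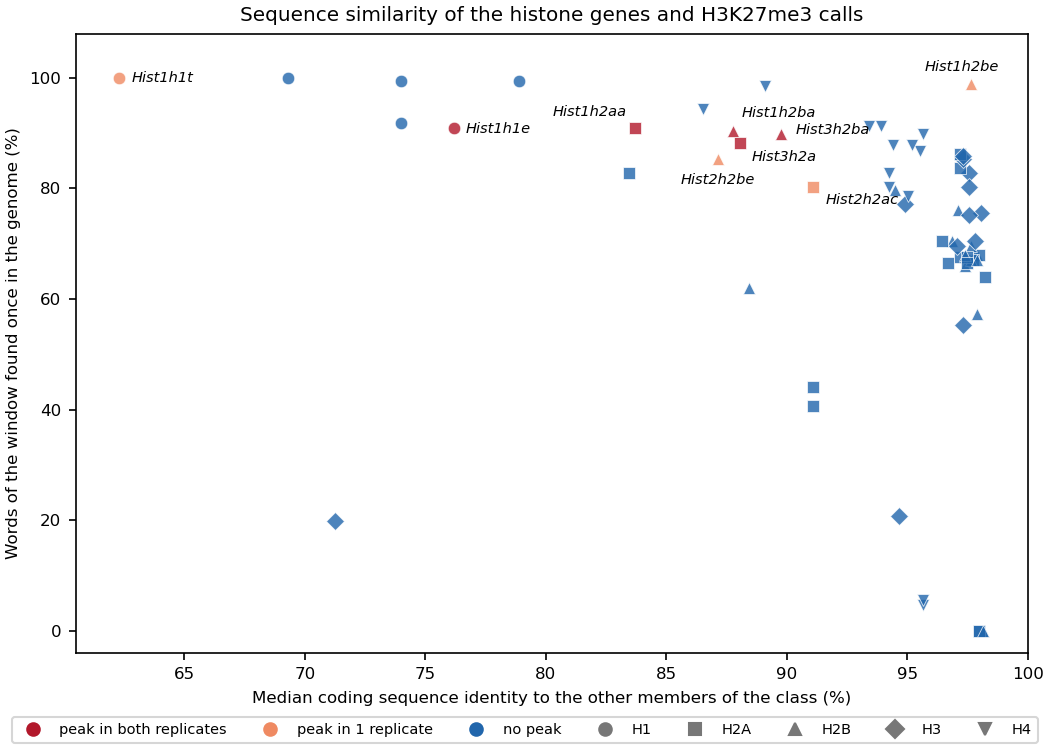
Each of the 67 histone genes by the median identity of its coding sequence to the others of its class (horizontal axis, percent) and the share of 36-base words of its 2001 bp window found once in the genome (vertical axis, percent), with colour for the H3K27me3 call and shape for the class. The 5 marked genes have 88.3% to 90.9% unique words and identities of 76.2% to 89.8%, while the 10 genes under 50% unique words have no peak.

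Histone genes listed as replication-independent and the machinery that serves the family were compared next. Of 17 replication-independent histone genes found in the annotation, 4 were marked (23.5%, against 26.1% of all genes). H1f0, the linker histone of differentiated cells, had 1511 bp covered in replicate 1 and 1266 bp in replicate 2. H2afy2, which encodes macroH2A2, had 1370 and 1024 bp. Hils1, a linker-like histone of spermatids, had 896 and 376 bp, and H1foo, the oocyte linker histone, had 641 and 291 bp. Another gene of the list had a peak in replicate 2 alone. The other 12 had no peak, among them Cenpa, the centromeric H3, H1fx, H2afb1 and H2afb2.

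Of 20 genes for histone gene transcription and 3' processing, 1 was marked (5%, against 26.1% of all genes), Sympk, the scaffold protein symplekin of the cleavage complex, with 230 bp covered in replicate 1 and 164 bp in replicate 2. Casp8ap2, a component of the histone locus body, and the cyclin and kinase genes Ccne1, Ccne2 and Cdk2 had no peak. Of 20 histone chaperone genes 0 were marked, against 26.1% of all genes, and 20 had no peak in either replicate, against 68.0% of all genes, among them Anp32e, Asf1a, Asf1b and Atrx.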

How the data were processed

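H3K27me3 was measured by ChIP-seq in 2 biological replicates of E14TG2a.4. Per the file headers, the mm10 peak lists stem from 2 runs of processing, one with relaxed and replicated lists, the other with pseudoreplicated lists of each library (used for the main calls) and of both together and a replicated list. In each deposited list a peak has the authors' signal value, scaled in a way the sources used here do not give, and its −log10 q. Signal therefore only ranks peaks within a list. The sources used here do not name the aligner, the peak caller or its thresholds. Depth is unknown, so no interval was computed. A list on mm9 was not used.

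Genes came from GENCODE mouse release 21. Clusters join histone genes at most 500 kb apart. Overlap needed 1 bp. Promoters and the genome came from RefSeq (GRCm38.p6). Protein sequences were not used here, so identity is that of coding sequences. No test was run: there is 1 group, and neighbouring genes are not replicates. The histone genes, related lists and alternatives were chosen with earlier results of these data known. Named genes were every histone gene with a peak, the 5 without one nearest to a common region and the 2 farthest, the alphabetically first unmarked gene of each class and cluster, the testis genes, marked neighbours in the clusters, and marked genes of related lists with up to 4 unmarked ones. Zfp184, Slc17a2, Trim38, Hist1h1d, Hist1h2an, Hist2h3c1 and the 4 genes without unique words were named after their values were seen. The interval arithmetic was tested on simulated data. Tools were Python 3.11.15, NumPy 2.4.6, Biopython 1.88 and Matplotlib 3.10.9.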

Additional observations from a re-analysis of the deposited data

How the results depend on the processing

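The count of 5 marked histone genes became 3 with a window of 0.5 kb or with 50% of the window covered. It became 9 with the relaxed lists, with either replicated list and with the list of both libraries together (33.3%, 34.2%, 33.2% and 33.2% of all protein-coding genes), and lay between 6 and 8 when 1 replicate was left out. The list of both libraries and the start codon window were added after seeing the data. Marked replication-independent histones fell to 2 with 50% covered. The count of transcription and processing genes was 0 with 0.5 kb or 50% covered and 2 with the relaxed lists and the first replicated list, and that of chaperones was 1 with any transcript start. The bases of the windows covered in both replicates, 3444, became 4096 with the relaxed lists, 5661 and 6147 with the first and second replicated list, and 4446 to 4609 with a replicate left out. The median signal of marked genes in replicate 1 was 5.26 as a base-weighted mean. The share of all clusters covered, 3.91%, became 4.56% with ends extended by 10 kb, 4.80% with the relaxed lists, 1.92% with clusters joined within 100 kb and 4.87% to 5.10% with a replicate left out. The median distance, 37831 bp, became 25725 bp with the relaxed lists and 24602 to 26833 bp with a replicate left out. In the other 45 comparisons of these results with an alternative, a count stayed within 1.5 times its value and a level moved by no more than 1 SD between replicates. Dropping a replicate adds bases by construction, and for the other settings the cause was not tested. No paired analysis was possible because the series has a single group. Depth per library is unknown, so an absent peak does not show that the mark is absent.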

Other observations

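Outside the replication-dependent genes, 10 protein-coding genes held letters of the histone stem-loop form within 100 bases after the stop codon. H2afx, the H2A variant of DNA damage signalling, placed here among the replication-independent histones, held it 47 bases after the stop. It had no H3K27me3 peak within 1 kb of its start in either replicate. H2bfm, an H2B-like gene on the X chromosome, held it 33 bases after the stop and was not marked. The other 8 were Gbp3, Gm9507, Lrrc75b, Nemp1, Palmd, Slc25a22, Timd4 and Ttc14. Of the 10, Lrrc75b, Nemp1 and Palmd were marked in both replicates, a share near the 26.1% of all protein-coding genes. These genes were named after their values were seen, and a match of letters is not evidence of a working stem-loop.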
